A study of Homo sapiens with 24 samples.

Results

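Mitochondria carry their own ribosome, and the proteins of that ribosome are encoded by nuclear genes named MRPL (large subunit) and MRPS (small subunit). The 76 genes described here are all those rows of the deposited expression table whose symbol is MRPL or MRPS followed by a number and at most 1 letter from A to C, out of 23284 rows. They were chosen by name and not by any measured value. Of the 76 genes, 47 are named MRPL and 29 are named MRPS. All 76 were at 1 FPKM or more in each of the 24 libraries, so every one passed the filter on low values in every comparison. FPKM is the number of fragments scaled to transcript length and to all mapped fragments, a level that is comparable between genes of different length.

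The libraries came from 6 established human liver cancer lines (HepG2, Hep3b, HLE, SK-HEP1, Huh1 and Huh7), with 1 library per line in each of 4 groups. Cells received a control siRNA (siCTL) or an siRNA against SFPQ (siSFPQ), and each was left without or with TGF-beta at 2 ng/ml for 24 h (siCTL, siCTL+TGFb, siSFPQ and siSFPQ+TGFb, n = 6 lines each). SFPQ is a nuclear protein that binds DNA and RNA and is part of paraspeckles, and TGF-beta is a cytokine that signals through SMAD transcription factors. The lines are the replicates, so each test sets the mean change against its spread between lines. A repeat of 1 line, a further SFPQ siRNA or a rescue is not named in the labels. The series title places the comparison in a study of Smad4 held in SFPQ condensates.

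The mitochondrial ribosome translates the few messages encoded by mitochondrial DNA, all of them subunits of the respiratory chain and ATP synthase. Its proteins are made in the cytosol and imported, and then assembled on ribosomal RNA made inside the organelle. Some of its proteins have a bacterial homologue, and others are specific to mitochondria. MRPS30 and MRPS18A, despite their names, sit in the large subunit, and MRPS36 is now known as a component of the alpha-ketoglutarate dehydrogenase complex. Liver cells are rich in mitochondria, and these genes are active in all cell types.

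The start-site sequences of 5 members are shown because they belong to the members with the largest falls or the rise reported further on, or carry the letters of the ETS site that is common among these genes. RefSeq promoter windows (build GRCh38.p14) matched 67 of the 76 members by symbol, and 56 of these had a single start. Each line below holds the 250 bases before the start, 5′ to 3′ on the strand of the gene. Capitals mark CCGGAAG, the core of ETS-family sites such as that of GABP, or AAGATGGC, the core of the YY1 site, on either strand. MRPS6 lies at chr21:34073328-34073577 on the plus strand, MRPL42 at chr12:93467264-93467513 on the plus strand, MRPL32 at chr7:42932126-42932375 on the plus strand, MRPL51 at chr12:6493263-6493512 on the minus strand and MRPS10 at chr6:42217862-42218111 on the minus strand.
MRPS6: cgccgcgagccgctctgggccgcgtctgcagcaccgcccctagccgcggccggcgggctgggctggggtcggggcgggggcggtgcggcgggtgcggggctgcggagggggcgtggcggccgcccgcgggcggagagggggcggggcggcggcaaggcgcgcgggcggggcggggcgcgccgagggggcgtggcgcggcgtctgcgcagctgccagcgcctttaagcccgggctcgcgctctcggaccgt
MRPL42: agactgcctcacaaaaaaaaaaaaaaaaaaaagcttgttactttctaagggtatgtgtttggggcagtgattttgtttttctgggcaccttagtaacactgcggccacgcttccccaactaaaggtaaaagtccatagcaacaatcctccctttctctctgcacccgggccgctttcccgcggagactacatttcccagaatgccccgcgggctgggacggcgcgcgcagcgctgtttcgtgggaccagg
MRPL32: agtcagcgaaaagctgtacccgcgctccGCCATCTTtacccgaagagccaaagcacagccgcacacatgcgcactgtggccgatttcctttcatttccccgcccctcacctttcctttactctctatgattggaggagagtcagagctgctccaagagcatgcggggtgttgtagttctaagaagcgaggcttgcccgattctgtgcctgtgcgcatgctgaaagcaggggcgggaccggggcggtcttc
MRPL51: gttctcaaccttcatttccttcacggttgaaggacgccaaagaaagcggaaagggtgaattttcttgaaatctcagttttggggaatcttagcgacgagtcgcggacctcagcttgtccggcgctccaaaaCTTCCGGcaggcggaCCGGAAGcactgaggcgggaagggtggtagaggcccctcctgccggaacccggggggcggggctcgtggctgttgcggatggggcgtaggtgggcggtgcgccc
MRPS10: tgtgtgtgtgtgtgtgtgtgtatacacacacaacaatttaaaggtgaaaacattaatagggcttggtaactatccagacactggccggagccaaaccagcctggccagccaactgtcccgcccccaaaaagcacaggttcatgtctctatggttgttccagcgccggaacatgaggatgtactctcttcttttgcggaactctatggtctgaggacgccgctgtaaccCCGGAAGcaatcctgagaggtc

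The windows of MRPS6 and MRPL42, members with large falls after the knockdown, hold neither motif. The MRPL32 window holds the YY1 letters on the reverse strand, starting 222 bases before the start. MRPL51 holds the ETS letters on both strands, starting 119 and 104 bases before the start, and MRPS10 holds them 22 bases before it.

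Over the full RefSeq window of 300 bases, which adds 50 bases after the start, the ETS letters were present in 29 of 67 members (43.3%) and in 21.6% of the 9454 genes tested that had a window. The YY1 letters were present in 21 members (31.3%) and in 6.43% of the genes tested. In 16 of those 21 members the YY1 letters lay only after the start, whereas the ETS letters began before it in 26 of 29. The palindromic consensus of NRF1 was in 1 member (1.49%, against 2.55%), the CCAAT box in 23 (34.3%, against 43.2%) and the GC box GGGCGG in 41 (61.2%, against 76.8%). All motifs were searched on both strands as exact letters, and a match is not evidence of binding. Among the 32 matched members that were lower after the knockdown with TGF-beta, 37.5% held the ETS letters and 28.1% the YY1 letters. Among the other 35 matched members, the shares were 48.6% and 34.3%.

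The check of the siRNA comes first. SFPQ, the targeted gene, lay between 90.4 and 247 FPKM in the siCTL libraries (median 176) and between 23.5 and 51.4 FPKM in the siSFPQ libraries (median 38.5). With TGF-beta it lay between 84.7 and 248 (median 168) in siCTL+TGFb and between 26.5 and 54.6 (median 37.7) in siSFPQ+TGFb. No siSFPQ library reached the level of any siCTL library. On the log2(FPKM + 1) scale used throughout, SFPQ was lower in 6 of 6 lines each time, a fall by 76.6% without TGF-beta and by 74.5% with it (limma, adjusted p 0.00287 and 0.00241).

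Several facts about the libraries touch the results. Summed over 8 hepatocyte markers (ALB, APOA1, APOB, TTR, SERPINA1, AFP, FGB and HNF4A), the siCTL libraries of Huh1, Huh7 and HepG2 held 1100 to 12300 FPKM, whereas those of Hep3b, HLE and SK-HEP1 held 16.8 to 24 FPKM, with TTR listed at 0 in HLE and SK-HEP1 and ALB under 1 FPKM in all 3. The library labelled Hep3b thus had 3 of 8 hepatocyte markers at 1 FPKM or more, and counts without this line are given beside the main ones. Endothelial markers summed to at most 1.31 FPKM in any library. The relative depth read from the steps of low values ran from 0.352 to 1.74 of the median library, and the 4 lowest were siSFPQ libraries, with or without TGF-beta, of Huh7, HepG2 and Huh1. Of 5 stellate and fibroblast markers, COL1A1 and PDGFRB passed the filter in the comparisons of 2 groups (all 5 did in the interaction), and both rose after the knockdown with TGF-beta (0.98 and 1.05) and with TGF-beta in siSFPQ cells (2.61 and 1.25). The summed level of the 5 ran from 4.83 to 84.9 FPKM in siCTL, 5.10 to 101 in siSFPQ, 10.3 to 146 in siCTL+TGFb and 20.2 to 238 in siSFPQ+TGFb. Of 4 immune markers only CD68 could be tested, and it rose by 0.36 after the knockdown without TGF-beta. The part of depth or of these markers in the member changes was not tested.

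Averaged over the 24 libraries, the mitoribosomal genes were well above the typical expressed gene. Their mean levels over the 24 libraries ran from 8.85 FPKM (MRPL22) to 188 FPKM (MRPS24), with a median of 46.1 against 10.9 for all 13487 genes at 1 FPKM or more in at least 6 libraries. The 30 large-subunit genes with a bacterial homologue had a median of 55.7 FPKM, and the 19 large-subunit genes specific to mitochondria 37.2. In the small subunit the 16 genes with a bacterial homologue had a median of 44.1, and the 10 specific to mitochondria 40.6. MRPS36 was at 17.2 FPKM.

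MRPS24, which stands in the small subunit at the entry of the mRNA, lay between 93.8 FPKM (HepG2) and 298 FPKM (Hep3b) in the siCTL libraries, with a median of 208. MRPL51 and MRPL41, mitochondria-specific proteins of the large subunit, had siCTL medians of 203 and 147 FPKM. At the low end, MRPL22, a protein of the wall of the exit tunnel, had a siCTL median of 8.80 FPKM (4.66 to 13.7). MRPS14, of the small subunit, had a siCTL median of 9.27 (5.85 to 17.9) and MRPL1, of the mobile stalk where spent tRNA leaves, 12.7 (10.1 to 19.4). The ranges of the high and the low genes did not overlap.

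**Figure D1:**
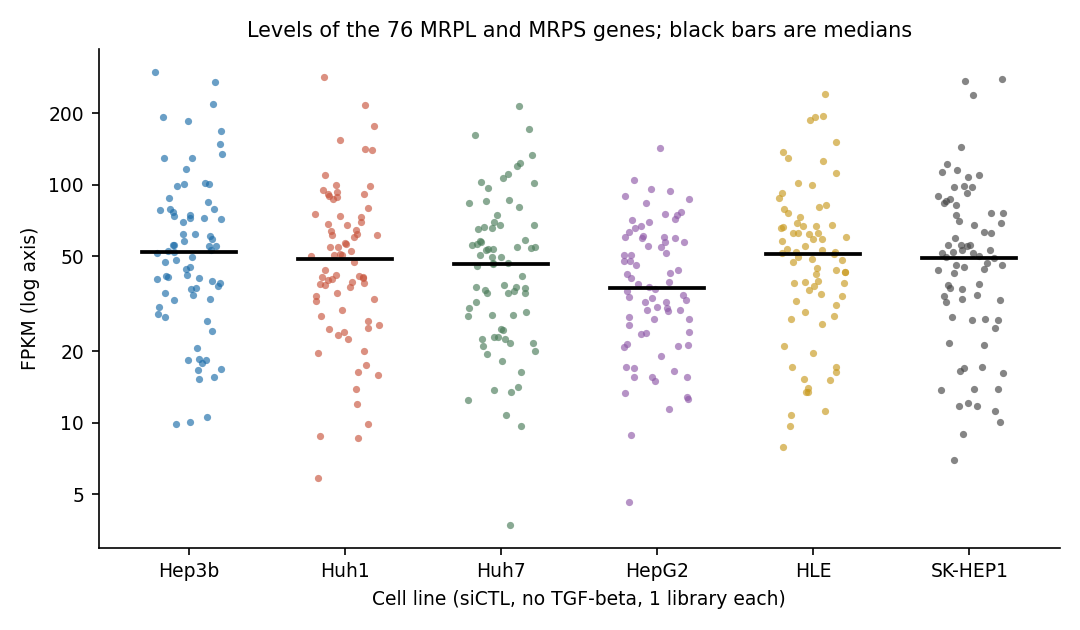
FPKM (log axis) of the 76 MRPL and MRPS genes in the siCTL library of each of the 6 lines; each point is 1 gene and each black bar the median over genes. The medians of 5 lines lie between 46.5 and 52.4 FPKM, and that of HepG2 is 36.9 FPKM.

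Which line a library came from accounted for most of the variation of these genes. In a description of each gene by line, siRNA and TGF-beta over the 24 libraries, the line term held a median of 85.3% of the sum of squares, the siRNA term 4.6% and the TGF-beta term 1.8%. The line term held over 50% in 69 of 76 members, and the siRNA term was the largest in 5. The median ratio of the highest to the lowest siCTL library was 2.31. The same values were not computed over all genes, so this dependence on the line is not shown to be particular to the family.

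The widest spread between lines was in MRPL11, a protein of the factor-binding region of the large subunit. Its siCTL level was 26.7 FPKM in Huh1 and 35.2 to 62.6 FPKM in 4 lines, but 162 FPKM in Huh7. That high level was present in all 4 Huh7 libraries, the lowest of which was at 98.5 FPKM. MRPL24, a protein near the tunnel, ran from 23.7 FPKM in HepG2 to 129 FPKM in Hep3b. MRPS21, of the small subunit, ran from 55.6 FPKM in Huh7 to 270 FPKM in Hep3b. Averaged over its 4 libraries, Hep3b was the highest line for 26 members, HepG2 the lowest for 30 and Huh7 the lowest for 21. For 21 members all 4 libraries of the highest line lay above every other library. The share of all genes with such a gap was not computed, so this count is not a trait shown for the family.

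Without TGF-beta, knockdown of SFPQ lowered a minority of the mitoribosomal genes, and 5 of them by a large amount. By limma, 17 of 76 members fell (22.4%, against 15% of the 12006 genes tested) and 1 rose, MRPL32 (against 6.69%); in either direction, 21.7% of all genes were called. The median change was -0.16, against -0.07 over all genes tested. In bulk RNA, fewer cells of a type and less RNA per cell cannot be told apart. The count of lower members was 15 without Hep3b (19.7%, against 12.1% of all genes) and 13 without HepG2 (17.1%, against 13.5%). It was 11 without Huh1 (14.5%, against 14%), 8 without Huh7 (10.5%, against 9.76%), 10 without HLE (13.2%, against 8.63%) and 9 without SK-HEP1 (11.8%, against 8.42%). With the libraries scaled to a common median ratio, which shifts the median of all genes from -0.07 to 0.02, 10 members were lower (13.2%, against 11%) and 2 higher. Without Huh1, without Huh7 and after scaling, the share of lower members was thus close to that of all genes.

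The largest fall was in MRPL14, a large-subunit protein with a bacterial homologue that faces the small subunit. It lay between 68.7 and 137 FPKM in siCTL (median 94.1) and between 19.5 and 52.7 FPKM in siSFPQ (median 38.1). The groups did not overlap, and SK-HEP1 went lowest, from 108 to 19.5 FPKM. The change was -1.34 ± 0.18 (SE, n = 6 lines), a fall by 60.6% (limma, adjusted p 0.00376), and it was lower in 6 of 6 lines, from -0.88 in HepG2 to -2.41 in SK-HEP1. With TGF-beta it fell by 1.42 ± 0.21 (limma, adjusted p 0.00364), from 55.9 to 140 FPKM (median 92.3) in siCTL+TGFb to 17.9 to 48.2 FPKM (median 36.1) in siSFPQ+TGFb, again with no overlap.

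MRPL42, a mitochondria-specific protein of the large subunit, lay between 11.8 and 28.2 FPKM in siCTL (median 15.9) and between 2.60 and 13.1 FPKM in siSFPQ (median 9.95). The groups overlapped, since the lines differ in their starting level: Huh1 went from 25.8 to 13.1 FPKM and SK-HEP1 from 11.8 to 2.60 FPKM. MRPL42 fell in all 6 lines, by 1.07 ± 0.16 without and by 1.18 ± 0.16 with TGF-beta (limma, adjusted p 0.00413 and 0.00318). MRPL1 lay between 10.1 and 19.4 FPKM in siCTL (median 12.7) and between 5.05 and 10.9 FPKM in siSFPQ (median 6.96), and only HepG2 in siSFPQ exceeded the lowest siCTL library. It fell by 0.84 ± 0.13 without and by 0.95 ± 0.10 with TGF-beta (limma, adjusted p 0.00473 and 0.00233), in 6 of 6 lines each time.

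In the small subunit, MRPS6 and MRPS28 fell most. MRPS6, which in bacteria pairs with a neighbouring protein on the platform, lay between 19.0 and 57.8 FPKM in siCTL (median 40.0) and between 7.78 and 22.6 FPKM in siSFPQ (median 17.9). The groups overlapped through HepG2, which went from 19.0 to 16.4 FPKM, while HLE went from 43.1 to 7.78 FPKM. MRPS6 fell by 1.11 ± 0.22 (limma, adjusted p 0.0115). MRPS28, the counterpart of bacterial protein S1, lay between 24.1 and 55.8 FPKM in siCTL (median 51.4) and between 14.0 and 35.0 FPKM in siSFPQ (median 18.7). It fell by 1.04 ± 0.20 (limma, adjusted p 0.00954), least in Huh1 (-0.22) and most in HLE (-1.85), and the groups overlapped through Hep3b in siSFPQ and the low siCTL levels of Huh1 and HepG2. With TGF-beta the same 2 genes fell by 1.11 ± 0.27 and 1.10 ± 0.21 (limma, adjusted p 0.017 and 0.00725).

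**Figure D2:**
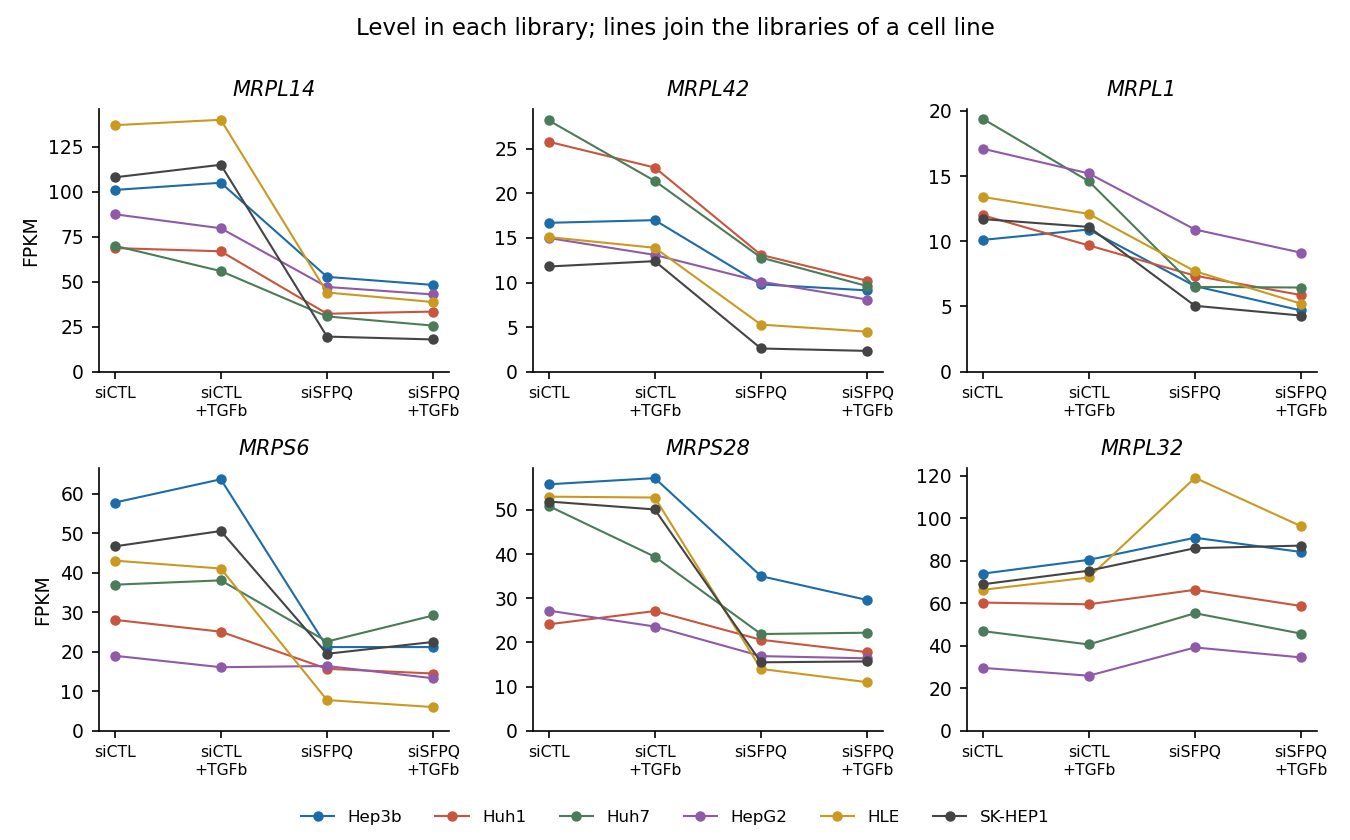
FPKM of 6 mitoribosomal genes in each of the 24 libraries, by group on the x axis; each coloured line joins the 4 libraries of a cell line and each vertical axis starts at 0. MRPL14, MRPL42, MRPL1, MRPS6 and MRPS28 step down from siCTL to siSFPQ in every line, and MRPL32 is higher in siSFPQ than in siCTL in every line.

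The other 12 members that fell without TGF-beta changed by -0.30 to -0.50. MRPS27, a pentatricopeptide repeat protein of the small subunit, had a median of 35.8 FPKM in siCTL (30.4 to 58.9) and 25 in siSFPQ (22.3 to 45.8), which overlap, and fell by 0.50 ± 0.09 (limma, adjusted p 0.00942). MRPL46 and MRPL39, mitochondria-specific proteins of the large subunit, fell by 0.48 and 0.46 (limma, adjusted p 0.0148 and 0.0185), lower in 6 of 6 lines each. These 3 and the 5 genes of large fall are the 8 that stayed called with any 1 line left out, after median scaling and after removal of a GC trend. MRPL17 fell by 0.40 and MRPL47, which has a bacterial homologue at the exit of the tunnel, by 0.42 (limma, adjusted p 0.0228 and 0.0321). MRPL17 lost its call without Huh7 or HLE (adjusted p 0.0558 and 0.0535), and MRPL47 without Huh1, Huh7, HLE or SK-HEP1 (0.0658 to 0.0863). The remaining 7, MRPL35, MRPS9, MRPL51, MRPL48, MRPS33, MRPL11 and MRPS18B, each lost the call with at least 1 line left out.

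The 1 member that rose was MRPL32, a large-subunit protein that is cleaved by the m-AAA protease after import, before it joins the ribosome. It lay between 29.6 and 73.9 FPKM in siCTL (median 63.3) and between 39.2 and 119 FPKM in siSFPQ (median 76.1), with wide overlap. It was higher in 6 of 6 lines, from 0.14 in Huh1 to 0.83 in HLE, by 0.37 ± 0.10 (limma, adjusted p 0.0287). The call was lost without Hep3b, HepG2, HLE or SK-HEP1 (adjusted p 0.0532 to 0.0629), and without HLE the change was 0.27. With TGF-beta the change was 0.20 ± 0.08 (limma, adjusted p 0.0803). The exons of MRPL32 overlap those of PSMA2 on the opposite strand, whose change was 0.00 (adjusted p 0.985).

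With TGF-beta present in both groups, a set of members again fell after SFPQ knockdown. By limma, 37 of 76 members fell (48.7%, against 21.8% of the 12015 genes tested) and 0 rose (against 8.46%). In either direction 30.3% of all genes were called. At an unadjusted p under 0.05 were 49 of the 76 members and 5279 of the 12015 genes. The median change was -0.23, against -0.09 over all genes tested. Lower calls over all genes were also more frequent here than without TGF-beta (21.8% against 15%), and the test of the difference between the comparisons, the interaction, called 0 of 76 members. The count of lower members was 34 without Hep3b (44.7%, against 18.7% of all genes). With any other line left out it was 30 to 35 (39.5% to 46.1%, against 14.8% to 19%). Median scaling, which moves the median of all genes to 0.01, left 16 members lower (21.1%, against 13.6% of all genes) and 1 higher. Over all genes it turned 1017 higher and 2620 lower calls into 1643 and 1634, so the number of small falls in the family depends on the scaling. The same scaling left the 5 largest falls called in both comparisons.

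The 17 members lower without TGF-beta were all among the 37 lower with it, which is 100% of the first list and 45.9% of the second. The changes in the 2 comparisons, which share no library, had r 0.97 and Spearman rho 0.91 over the 76 genes, as a description of these genes in the same 6 lines. The overlap and the correlations were not computed over all genes, so they are not shown to be particular to this family. After the genes of large fall came MRPL47 (-0.65), MRPL46 (-0.62), MRPS33 (-0.60), MRPS27 (-0.57) and MRPL17 (-0.56), with limma adjusted p from 0.00388 to 0.00885. MRPS33, a small mitochondria-specific protein of the small subunit, had a median of 42.4 FPKM in siCTL+TGFb (29.8 to 61.8) and 24.6 in siSFPQ+TGFb (18.9 to 41.6), which overlap, and was lower in 6 of 6 lines. The other 27 fell by 0.22 (MRPS30) to 0.51 (MRPL39). They included MRPL51, MRPL23, MRPS10, MRPS31 and MRPL35 between -0.43 and -0.48, and MRPS36, which is not part of the ribosome, at -0.40 (adjusted p 0.0202). MRPS18A, at -0.12 (adjusted p 0.269), and MRPL41, at -0.04 (adjusted p 0.755), did not pass.

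By place in the particle, the falls were spread over both subunits. With TGF-beta, where 21.8% of all genes fell, 12 of 30 large-subunit genes with a bacterial homologue and 11 of 19 specific to mitochondria fell. In the small subunit 9 of 16 with a bacterial homologue and 4 of 10 specific to mitochondria fell. The 4 medians lay between -0.18 and -0.25. Without TGF-beta, where 15% of all genes fell, the counts were 6 of 30 (20%), 5 of 19 (26.3%), 3 of 16 (18.8%) and 3 of 10 (30%), with medians between -0.09 and -0.19. A difference between these classes was not tested.

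**Figure D3:**
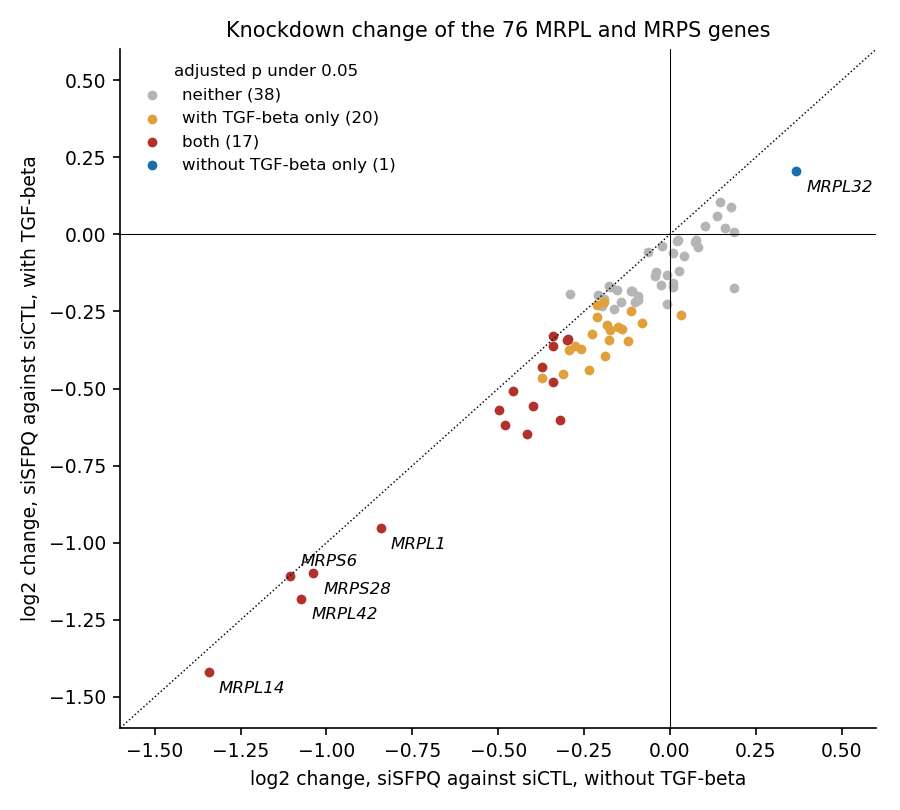
Log2 change of the 76 MRPL and MRPS genes after SFPQ knockdown without TGF-beta (x axis) against with TGF-beta (y axis); each point is 1 gene, coloured by the comparisons in which its adjusted p was under 0.05, and the dotted line marks equal change. All 17 genes lower without TGF-beta were lower with it, and most points lie below the dotted line.

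The mitoribosomal genes that span the longest stretch of genome were all among the falls. In GENCODE 29 annotation, 6 members have a transcript that spans over 50 kb (MRPS28 111.6 kb, MRPS27 100.9, MRPL1 90.3, MRPL48 77.3, MRPS6 69.5 and MRPS9 62.0), and 6 of 6 fell in both knockdown comparisons, with medians of -0.67 and -0.76. Of all genes tested over 50 kb, 19.4% and 23.2% fell, with medians of -0.12 and -0.11. Among the 24 members under 5 kb, 3 fell without TGF-beta (12.5%) and 11 with it (45.8%), against 11.3% and 19.2% of all genes of that span. Of the 9 members from 20 to 50 kb, 2 fell without TGF-beta (22.2%, against 14.2% of all genes of that span). With TGF-beta 5 of the 9 fell (55.6%, against 21.8%). MRPL42, at 48.7 kb, fell in both comparisons. MRPL13, at 49.5 kb, was at -0.17 without TGF-beta (limma, adjusted p 0.147) and fell by 0.31 with it (adjusted p 0.0167). MRPL14, the largest fall, spans only 14.0 kb. Over the 76 members, span and change had a Spearman rho of -0.32 without and -0.26 with TGF-beta (over all genes -0.13 and -0.07). As descriptions, these values rest on genes that also differ in level and GC, whose rho with the change without TGF-beta were 0.37 and 0.23 over the members. The 50 kb limit was set with the changes in view.

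**Figure D4:**
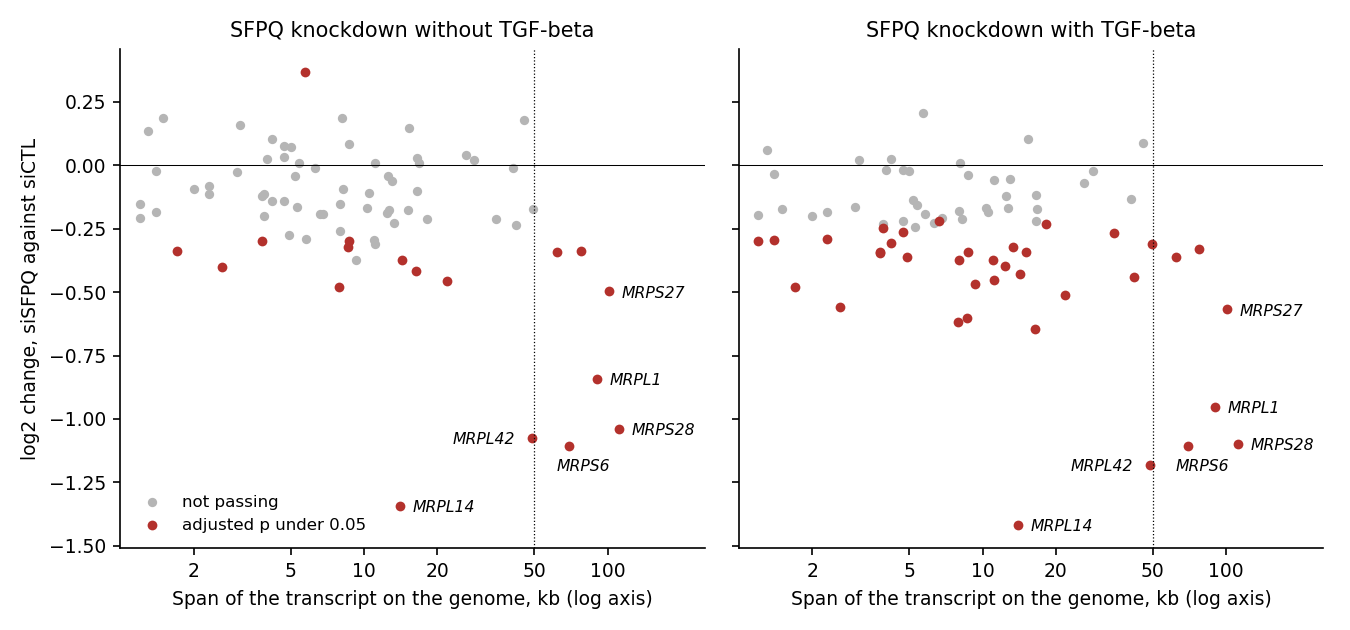
Log2 change after SFPQ knockdown (y axis) against the genomic span of the transcript in kb (log axis) for the 76 MRPL and MRPS genes, without TGF-beta on the left and with it on the right; red points have an adjusted p under 0.05 and the dotted line marks 50 kb. The 6 genes over 50 kb are all red and below 0 in both panels, and MRPL14 stands apart at 14.0 kb.

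Some of these genes share sequence with others, and the strand used in counting is not given in the sources used here. Exons of 29 members overlap a gene on the other strand and those of 16 overlap a gene on the same strand, and 33 members have a named pseudogene copy, so reads could be split or shared between them. MRPL14 and MRPL1 have no such overlap or copy, while MRPL42 has 4 pseudogene copies and MRPS6 has 2. MRPS28 overlaps AC036214.3 on the same strand. For MRPS6, the overlapping gene SLC5A3 was at 0.22 without TGF-beta (adjusted p 0.279) and rose by 0.38 with it (limma, adjusted p 0.0408), opposite in sign to MRPS6. NCAPD2, which overlaps MRPL51 on the other strand, fell by 0.52 in both comparisons (limma, adjusted p 0.0309 and 0.0331), in the same direction as MRPL51. How far their exons overlap was not measured, and reads shared between these 2 cannot be set apart without strand. ACTL6A, over MRPL47, was at -0.34 (adjusted p 0.091) and fell by 0.37 with TGF-beta (limma, adjusted p 0.0445). PTCD2, over MRPS27, was at -0.27 (adjusted p 0.106) and fell by 0.31 with TGF-beta (limma, adjusted p 0.0346).

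TGF-beta alone gave no call in the family. With siCTL, 0 of 76 members passed in either direction by limma (against 0.0329% lower and 0.0658% higher of the 12157 genes tested). At an unadjusted p under 0.05 were 11 of the 76 members and 1908 of the 12157 genes. Without a filter on low values 0 members passed as well, as did 0 of the 19930 genes then tested. The median change was -0.08, against -0.03 over all genes. The smallest p was that of MRPS30, which lay between 16.9 and 79.1 FPKM in siCTL (median 29.7) and between 15.2 and 70.8 FPKM in siCTL+TGFb (median 25.1), with wide overlap. Its change was -0.26 ± 0.06, lower in 6 of 6 lines (limma, adjusted p 0.119). MRPL41 was at -0.14 (adjusted p 0.209) and MRPL16, a protein of the tRNA-binding face of the large subunit, at -0.15 (adjusted p 0.277), each lower in 5 of 6 lines.

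The lines differed in this comparison. In Huh7, 70 of 76 members were lower with TGF-beta (92.1%, against 53.2% of all genes), with a median of -0.27 against -0.02. In HepG2 72 were lower (94.7%, against 52.3%) and in Huh1 64 (84.2%, against 58.2%), with medians of -0.14 and -0.12. In Hep3b 9 of 76 were lower (11.8%, against 47.8%), with a median of 0.06, and in HLE and SK-HEP1 the medians were -0.03 and -0.01. With 1 library per line and group, these values have no replicate check. The 3 lines with the lowest medians are the 3 with high hepatocyte markers, and the part of that difference was not tested.

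**Figure D5:**
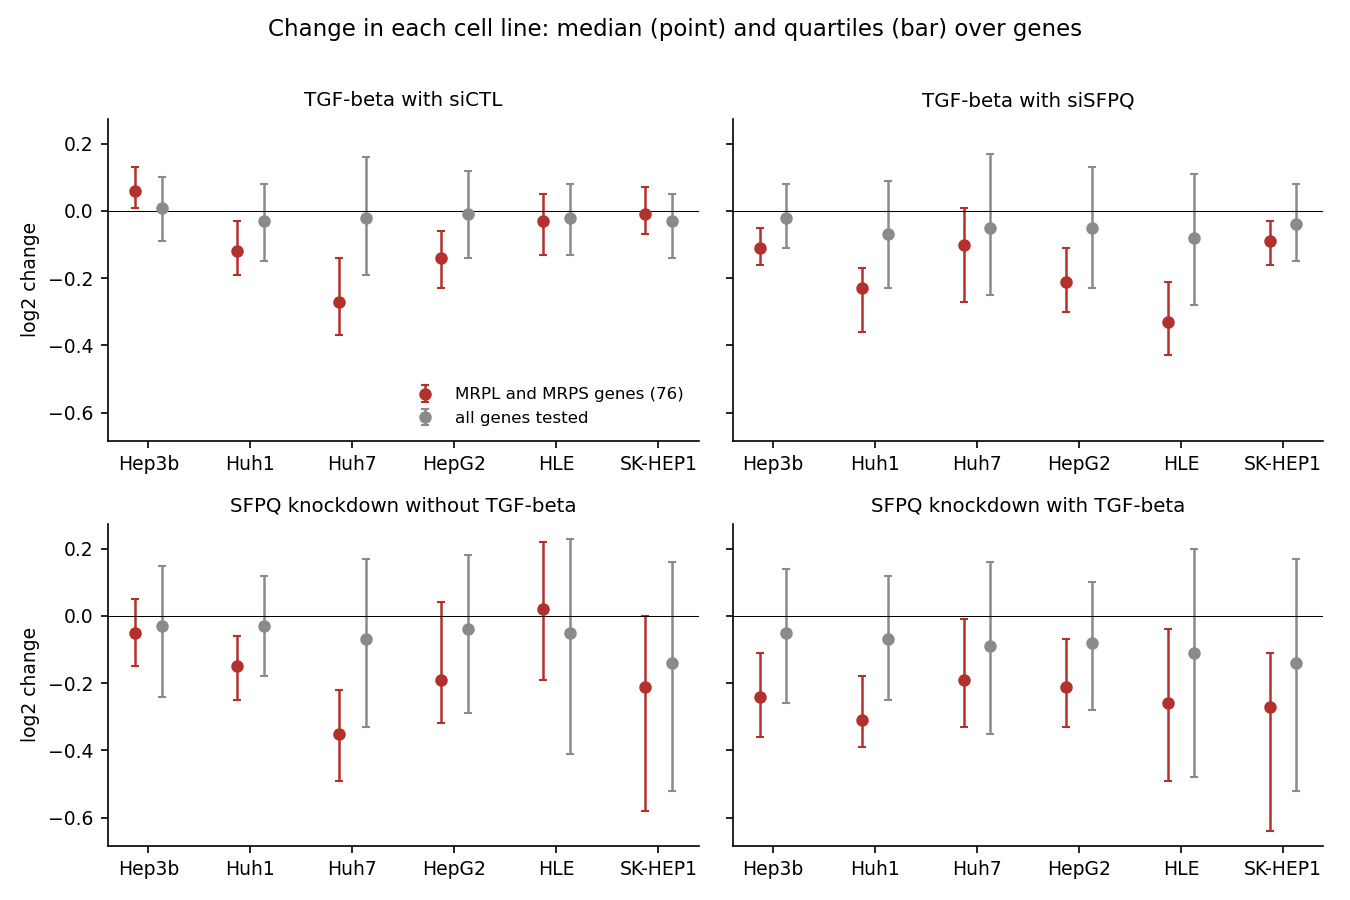
Log2 change in each of the 6 lines (x axis) in 4 comparisons; points are medians over the 76 MRPL and MRPS genes (red) or all genes tested (grey), and bars are the quartiles over genes, not errors between replicates. With TGF-beta the knockdown medians of the family are below those of all genes in each line, between -0.19 and -0.31. Without TGF-beta the family median is 0.02 in HLE, against -0.05 for all genes, with 42.1% of members lower against 55%. In the other lines it is below that of all genes, from -0.05 in Hep3b (against -0.03) to -0.35 in Huh7 (against -0.07).

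After SFPQ knockdown, TGF-beta lowered a small set of members of both subunits. By limma, 9 of 76 fell (11.8%, against 2.9% of the 11879 genes tested) and 0 rose (against 2.26%). In either direction 5.16% of all genes were called. At an unadjusted p under 0.05 were 48 of the 76 members and 3352 of the 11879 genes. The median change was -0.17, against -0.06 over all genes. The count of lower members was 6 without Hep3b (7.89%, against 1.81% of all genes) and 0 without Huh1 (against 0.0447%). It was 1 without Huh7 (1.32%, against 0.275%), 0 without HepG2 (against 0.0707%) and 0 without HLE (against 0.0522%). Without SK-HEP1 it was 3 (3.95%, against 0.734%), and with no filter on low values 0 (against 0.0101%). No single gene of this set thus kept its call with every line left out in turn.

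The 9 genes were MRPL4, MRPL12, MRPL20, MRPL24 and MRPL36 of the large subunit and MRPS15, MRPS16, MRPS17 and MRPS33 of the small subunit, at -0.23 to -0.39. MRPL4, whose protein reaches into the exit tunnel, lay between 48.3 and 104 FPKM in siSFPQ (median 79.7) and between 35.2 and 83.3 FPKM in siSFPQ+TGFb (median 61.3). The groups overlapped, and it was lower in 6 of 6 lines, by 0.37 ± 0.05 (limma, adjusted p 0.0231). MRPL12, which forms the flexible stalk that recruits translation factors, went from a median of 142 FPKM (84.0 to 267) to 112 FPKM (62.5 to 239), by -0.38 ± 0.07 (limma, adjusted p 0.0339). MRPL36, a small zinc-binding protein of the large subunit, went from a median of 68.4 FPKM (24.6 to 120) to 50.3 FPKM (16.2 to 117), by -0.39 ± 0.09 (limma, adjusted p 0.0469). Each of the 9 was lower in 6 of 6 lines.

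A difference of the TGF-beta change between siSFPQ and siCTL was not called for any member. In the interaction test 0 of 76 passed by limma (against 0.0297% lower and 0.222% higher of the 13487 genes tested). At an unadjusted p under 0.05 were 16 of the 76 members and 1688 of the 13487 genes. The median was -0.09, against -0.03 over all genes. MRPL36 had the smallest p, with -0.36 ± 0.07 (adjusted p 0.121), lower in 6 of 6 lines. MRPS33 was at -0.28 (adjusted p 0.169) and MRPL55 at -0.21 (adjusted p 0.236), also lower in 6 of 6 lines each. By line, the median was below 0 in 5 lines, down to -0.29 in HLE. There 75 of 76 members were below 0 (98.7%, against 56% of all genes). In Huh7 the median was 0.17, and 20 members were below 0 (26.3%, against 51.8%). Without Huh7, 0 members passed, against 24 higher and 5 lower of the 12938 genes then tested. At an unadjusted p under 0.05 were 36 members and 2286 of those genes.

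Proteins of the same ribosome under other symbols did not pass without TGF-beta, and most but not all fell with it. Of 7 tested, 0 fell and 0 rose without TGF-beta by limma (against 15% and 6.69% of all genes). There 4 were at an unadjusted p under 0.05, as were 4483 of the 12006 genes tested. With TGF-beta 5 fell (71.4%, against 21.8%). GADD45GIP1, at 0.26, and ICT1, at -0.02, did not pass with TGF-beta (limma, adjusted p 0.0556 and 0.887). DAP3, a GTP-binding protein of the small subunit, was at -0.29 (adjusted p 0.0701) without and fell by 0.42 with TGF-beta (limma, adjusted p 0.0153). CHCHD1, of the small subunit, was at -0.23 (adjusted p 0.0925) and fell by 0.36 (limma, adjusted p 0.00911). AURKAIP1, also of the small subunit, was at -0.26 (adjusted p 0.0689) and fell by 0.25 (limma, adjusted p 0.0303).

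Genes that build the ribosome were called about as often as all genes without TGF-beta. Of 22 assembly and ribosomal RNA factors, 3 fell (13.6%, against 15% of all genes) and 1 rose without TGF-beta by limma. With it 10 fell (45.5%, against 21.8%) and 0 rose. There 13 of the 22 were at an unadjusted p under 0.05, as were 5279 of the 12015 genes tested. MTG1, a GTPase of large-subunit assembly, fell by 0.55 and 0.72 (limma, adjusted p 0.0194 and 0.00749), and MPV17L2, a membrane protein needed for assembly, by 0.34 and 0.42 (adjusted p 0.0354 and 0.024). NSUN4, a methyltransferase of the small-subunit RNA that also takes part in joining the subunits, rose by 0.46 without TGF-beta (limma, adjusted p 0.0182) and was at 0.32 with it (adjusted p 0.0555). Its level went from a median of 6.74 FPKM in siCTL (4.84 to 8.95) to 9.90 in siSFPQ (7.95 to 10.9), higher in 6 of 6 lines.

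Of 16 mitochondrial translation factors, 6 fell in each knockdown comparison (37.5%, against 15% and 21.8% of all genes). The recycling factors MRRF and GFM2, which split the ribosome after termination, fell by 0.81 and 0.80 without TGF-beta (limma, adjusted p 0.00754 and 0.00404) and by 0.96 and 0.74 with it (0.0024 and 0.00467). TACO1, an activator of the translation of a cytochrome oxidase subunit, fell by 0.48 and 0.46 (0.00954 and 0.0139). Of 17 mitochondrial tRNA synthetases, 6 fell without (35.3%) and 8 with TGF-beta (47.1%). FARS2, which charges phenylalanine tRNA, fell by 0.90 and 1.14 (limma, adjusted p 0.0138 and 0.00846). SARS2 fell by 0.51 and 0.49, and LARS2 by 0.42 and 0.45.

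The regulators of mitochondrial biogenesis did not fall as a list. Without TGF-beta 1 of 11 tested rose and 0 fell (against 6.69% and 15% of all genes). With it 3 of 12 rose and 1 fell (against 8.46% and 21.8%). MYC, a transcription factor, rose by 0.63 and 0.49 (limma, adjusted p 0.0146 and 0.0449). POLRMT, the RNA polymerase of mitochondria, was at 0.31 (adjusted p 0.0936) and rose by 0.41 with TGF-beta (adjusted p 0.0217). ESRRA, a nuclear receptor of mitochondrial genes, was at -0.27 (adjusted p 0.0858) and fell by 0.33 (adjusted p 0.0256). YY1, whose letters are in the 300-base window of 21 members, was at -0.05 (adjusted p 0.707) without TGF-beta and rose by 0.27 with it (adjusted p 0.0384).

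Other families are given beside these counts; of all genes tested, 15% fell without (median -0.07) and 21.8% with TGF-beta (median -0.09). Of 76 nuclear-encoded subunits of oxidative phosphorylation tested, 12 fell and 0 rose without TGF-beta (15.8%, median -0.11), and 39 fell and 1 rose with it (51.3%, median -0.21). Of 21 subunits of the TOM and TIM import complexes, 7 fell and 2 rose without, and 11 fell and 2 rose with TGF-beta. Of 76 proteins of the cytosolic ribosome, 1 fell without (median 0.05) and 11 fell with TGF-beta (14.5%, median -0.04), where 37 mitoribosomal genes fell with a median of -0.23. With TGF-beta in siSFPQ cells, 13 of 76 cytosolic ribosomal proteins (17.1%) and 5 of 21 import subunits (23.8%) fell. There 6 of 76 oxidative phosphorylation subunits fell (7.89%), as did 9 of 76 mitoribosomal genes (11.8%) and 2.9% of all genes. That fall is thus not shown to be particular to the mitoribosomal genes. Interaction medians were -0.11 for the cytosolic ribosome, -0.1 for oxidative phosphorylation and -0.09 for import and mitoribosomal genes. A difference between the families was not tested.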

How the data were processed

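The authors deposited 1 table of FPKM values for 24 polyA RNA-seq libraries. Its name speaks of raw counts, but the values are not whole numbers, so the test planned for normalized values was used in place of a count test. TopHat2 2.1.1, Cufflinks 2.2.1 and hg19 are named, per the submitters' processing notes; absolute depth and counting strand were not found there. 1640 entries for short RNAs were set aside, which left 21644 of 23284, and 2 empty columns were not used.

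Each comparison was a limma 3.58.1 fit (R 4.3.3) of log2(FPKM + 1) on group and cell line, with trend and robust eBayes and 5 residual degrees of freedom. It covered genes at 1 FPKM or more in at least 6 of the libraries compared, with Benjamini-Hochberg adjustment over all of them and calls at an adjusted p under 0.05. The interaction used all 4 groups. A fold on this scale understates the change of low genes. The fit was tested on simulated data.

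The cell line pairs the libraries: deviations from the group means had r from 0.874 to 0.978 within a line and from -0.514 to 0.41 otherwise, and no libraries were identical. The labels do not say that libraries came from separate cultures. Spans came from GENCODE 29, which held 96% to 96.5% of the genes tested.

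Genes named are, per comparison, up to 10 called members in each direction by size (the 3 smallest p where under 3 passed), the 3 highest, the 3 lowest and the 3 most variable between lines, MRPS36, MRPS30, MRPS18A and 3 genes per pathway list by p; others were named after their values were seen. Members and lists were chosen with earlier results of these data known. Alternatives were a pseudocount of 0.1, no filter, no line block, median-ratio scaling, each line left out, and 2 added after seeing the data (GC trend removed, Huh7 and HepG2 left out).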

Additional observations from a re-analysis of the deposited data

Results flagged for a closer look

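In 72 sets of 6 per-line changes, 3 had 1 line far from the other 5, where chance alone flags about 1 in 20 sets. MRPL32 after SFPQ knockdown without TGF-beta was at 0.83 in HLE, against 0.14 to 0.40 in the other lines. AURKAIP1, a small-subunit protein, was in the same comparison at -0.69 in Huh7, against -0.28 to -0.10 elsewhere. NSUN4, the ribosomal RNA methyltransferase, was at 0.91 in SK-HEP1, against 0.26 to 0.50.

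The change with TGF-beta differed between siSFPQ and siCTL in the interaction test for 2 genes of the pathway lists. GADD45GIP1, a large-subunit protein of the mitochondrial ribosome, was 0.49 ± 0.07 higher in the interaction (limma, adjusted p 0.0244), above 0 in 6 of 6 lines. With siCTL it went from a median of 122 FPKM (80.2 to 229) to 98.4 FPKM (63.1 to 214) with TGF-beta, lower in 6 of 6 lines, at -0.27 (adjusted p 0.0823). With siSFPQ it went from 106 FPKM (72.5 to 177) to 129 FPKM (76.8 to 204), higher in 6 of 6 lines, at 0.22 (adjusted p 0.0965). The second gene, YY1, had an interaction of 0.32 ± 0.05 (limma, adjusted p 0.0485), above 0 in 6 of 6 lines; its TGF-beta change was -0.05 with siCTL (adjusted p 0.691) and 0.28 with siSFPQ (adjusted p 0.0339).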

How the results depend on the processing

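No count of members moved with a pseudocount of 0.1. With no filter on low values, lower members were 8 in the knockdown without TGF-beta (10.5%, against 3.97% of all genes), with 0 higher. With TGF-beta in siSFPQ cells they were 0 (against 0.0101%). Median-ratio scaling gave 10 lower (13.2%, against 11%) and 2 higher without TGF-beta, and 16 lower (21.1%, against 13.6%) and 1 higher with it. It gave 5 lower (6.58%, against 1.29%) with TGF-beta in siSFPQ cells. Removal of the GC trend gave 9 and 2, 18 and 2, and 5 (6.58%, against 1.44%). Leaving out Huh7 and HepG2 together gave 5 and 0, 21 lower, and 0 (against 0.132%). In the knockdown without TGF-beta, the lower members were then 11.8% (against 10.9% of all genes) and 6.58% (against 6.26%), close to the background, and with TGF-beta they were 23.7% (against 13.1%) and 27.6% (against 11.1%); these last 2 settings were chosen after seeing the data. With 1 line left out, lower members ranged from 8 to 15 without TGF-beta (10.5% to 19.7%, against 8.42% to 14% of all genes), and higher members from 0 to 1. With TGF-beta lower members ranged from 30 to 35 (39.5% to 46.1%, against 14.8% to 19%). With TGF-beta in siSFPQ cells they ranged from 0 to 6 (0 to 7.89%, against 0.0447% to 1.81%).

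The fit with no replicate block, in which the pairing by line is ignored, called 0 members in every comparison, and 0 of all genes tested. It leaves in the residual the differences between lines, whose term held a median of 85.3% of the sum of squares of the members. At an unadjusted p under 0.05, the knockdown without TGF-beta had 6 members and 633 of the 12006 genes tested. With TGF-beta it had 11 members and 734 of the 12015 genes. The part of these differences in the lost calls was not tested.

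Changes of sign were looked for only in the named genes of each comparison. They were found in 5 genes, in the knockdown without TGF-beta, where these did not pass. Other members were not examined for this. MRPS24 and MRPL41 were at 0.07 and 0.08 after scaling, at 0.03 each without Huh7 or without HepG2, and at 0.11 each without both. MRPS24 was at 0.03 and MRPS14 at 0.02 after GC removal. MRPS18A was at 0 without Hep3b and -0.02 without HLE, and MRPL22 at -0.06 without HLE. With 1 line left out, MRPS24 ranged from -0.07 to 0.03, MRPL41 from -0.08 to 0.03, MRPS18A from -0.02 to 0.06 and MRPL22 from -0.06 to 0.07. The cause of these shifts was not tested. Depth is known only in relative terms, so no counting error could be given.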
